A study of Mus musculus with 6 samples.

Results

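The 10 genes Slc2a1, Hk1, Hk2, Pfkp, Aldoa, Gapdh, Pgk1, Eno1, Pkm and Ldha, which carry glucose into the cell and along glycolysis to lactate, were followed in CD4+ T cells from mouse liver. They were taken by exact row name, 10 of the 23505 gene rows counted, and all 10 passed the filter on low counts. All mice were wild type and had received concanavalin A (ConA), a lectin from jack beans whose injection drives T cells to attack the liver. The 3 ConA libraries came from mice gavaged with phosphate-buffered saline, and the 3 ConA+SIM libraries from mice gavaged with simvastatin, a statin that blocks cholesterol synthesis, at 30 mg/kg. In both groups gavage was given daily for the 5 days before ConA, at 1 h before it and at 24 h after it, and CD3+ CD4+ cells without CD8 or NK1.1 were sorted by flow cytometry. There was no group without ConA, so what ConA itself does to these genes was not measured. The labels used here give neither strain, age nor the hour of harvest. They do not say if a library was 1 mouse or a pool, and the p-values therefore reflect only how far these libraries differ, which may be technical.

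Resting T cells burn little glucose, and activation through the T cell receptor turns on glucose uptake and aerobic glycolysis, in which pyruvate is turned into lactate even when oxygen is present. Uptake by the transporter GLUT1 and phosphorylation by hexokinase trap glucose in the cell, phosphofructokinase commits it to the pathway, and the later enzymes yield ATP, NADH and pyruvate. The factors HIF1 and MYC and the mTOR kinase are known to raise transcription of many of these genes, and effector T cells rely on the pathway for growth and cytokine output. The comparison asked whether simvastatin changed these genes in the liver CD4+ T cells of ConA hepatitis, in a study whose title names T cell activation and calcium-NFATC3 signalling.

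HIF1 binds a core motif of which ACGTG is a common form. Because HIF1 control is the best known feature shared by these genes, the 250 bases before each RefSeq gene start (GRCm38.p6) were searched for ACGTG on both strands. The motif was found before 7 of the 17 listed starts of the 10 genes, against 16.6% of all 32851 starts, and 2 of these 7 starts, both of Aldoa, share 1 match. Counted by gene, 6 of the 10 had at least 1 such start, against 18.5% of 27025 genes. These shares by gene are not like for like. A gene with more listed starts has more windows to match, and the 10 genes had 17 starts where the 27025 genes had 32851. The longer motif CACGTG, the E-box that MYC binds and which contains ACGTG on both strands, was found before 1 of the 17 starts, that of Ldha, against 6.02% of all starts. The windows below show the match nearest to a listed start in each of the 6 genes, with the matched bases in capitals, read 5′ to 3′ along the gene's strand. Those of Aldoa, Pkm and Ldha lie inside the full span of the gene, before a listed start within it. Those of Slc2a1, Hk2 and Pgk1 lie outside the span, before the outermost start.
Slc2a1, chr4:119108694-119108728, plus strand: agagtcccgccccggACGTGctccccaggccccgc
Hk2, chr6:82774487-82774521, minus strand: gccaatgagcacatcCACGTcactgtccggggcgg
Aldoa, chr7:126799361-126799395, minus strand: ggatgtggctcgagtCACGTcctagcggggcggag
Pgk1, chrX:106186954-106186988, plus strand: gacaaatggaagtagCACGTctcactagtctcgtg
Pkm, chr9:59657137-59657171, plus strand: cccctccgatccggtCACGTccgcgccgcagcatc
Ldha, chr7:46845755-46845789, plus strand: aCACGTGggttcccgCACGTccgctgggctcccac
These matches are a description of the sequence, and no binding was measured.

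None of the 10 genes passed the test between the groups: 0 rose and 0 fell at an adjusted p under 0.05 by edgeR's quasi-likelihood test, where 0.542% of the 10509 tested genes passed, 57 genes, all of them higher in ConA+SIM. That number rested on all 6 libraries together: leaving out ConA+SIM replicate 3 left 3 genes, and leaving out any other library left 0. At an unadjusted p under 0.05 there was 1 of the 10, Aldoa, lower in ConA+SIM, against 8.85% of all tested genes at that level, 3.54% lower and 5.31% higher. DESeq2, which called 5.28% of all tested genes, called Aldoa among the 10, did not call 7 and gave Hk2 and Gapdh no adjusted p. Limma-voom, which called 1.09% of all tested genes, called 0 of the 10. The values of 7 genes were lower in ConA+SIM and those of 3 higher, with a median log2 fold change of -0.23 against -0.041 over all tested genes. In 3 genes, Hk2, Pfkp and Aldoa, every ConA+SIM library lay below every ConA library, and in 0 genes above; of all tested genes 17.8% separated, 8.57% in the lower and 9.18% in the higher direction. Below, levels per library are counts scaled to the library total (CPM, after TMM scaling), in the order of replicates 1 to 3, and fold changes are ConA+SIM over ConA with their standard error.

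**Figure D1:**
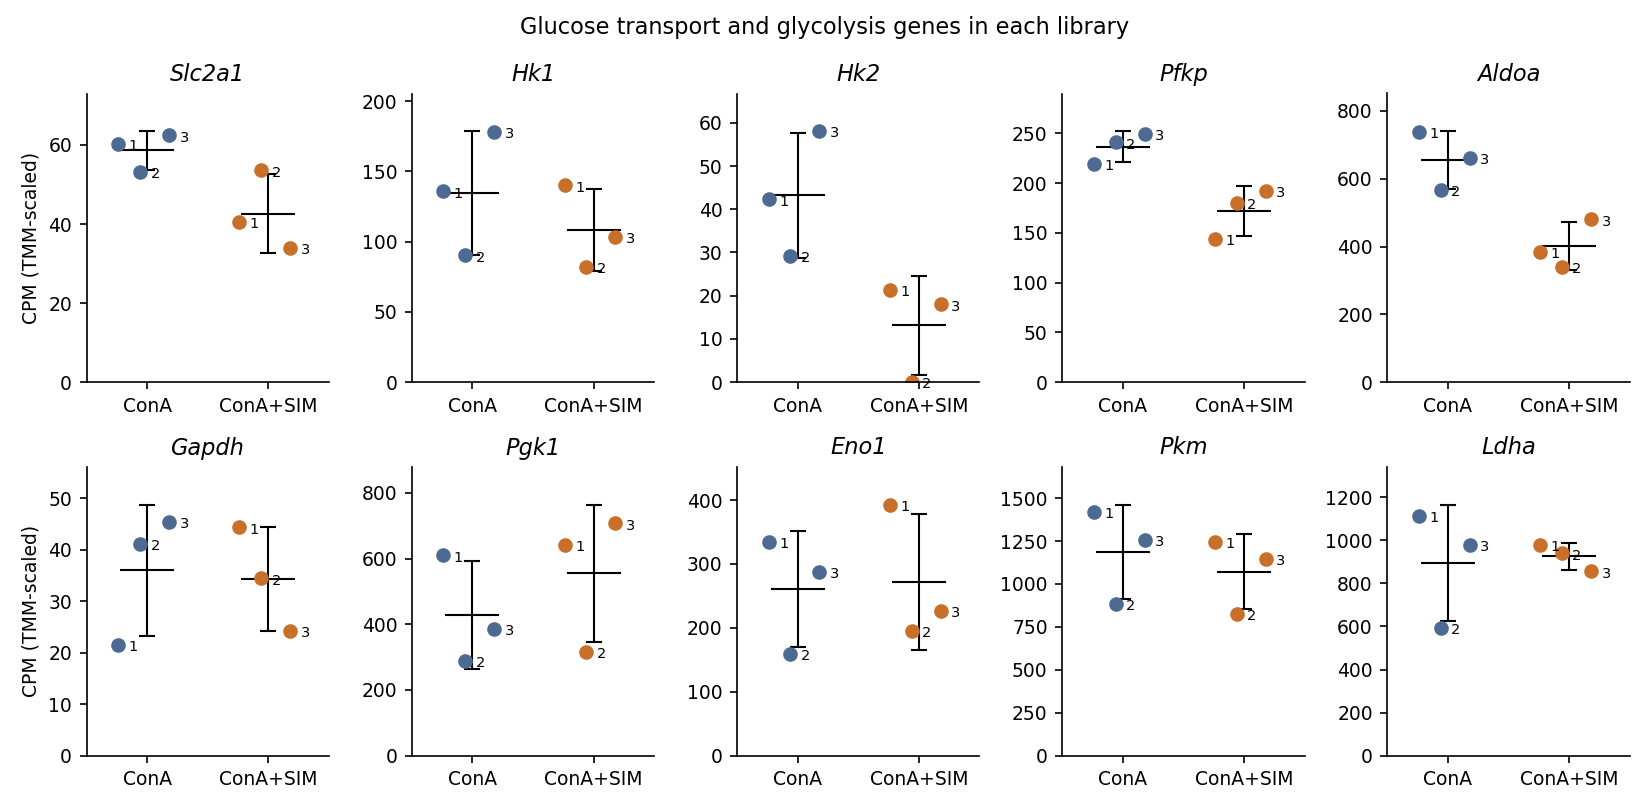
Level of each gene in CPM (vertical axes, from 0) in the 3 ConA libraries (blue) and 3 ConA+SIM libraries (orange), numbered by replicate, with the group mean and SD in black. Hk2, Pfkp and Aldoa show no overlap between the groups, and Hk2 is at 0 in ConA+SIM replicate 2.

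Glucose entry was represented by the transporter and both hexokinases. Slc2a1 (chromosome 4, 119108745 to 119137330, GRCm38) encodes GLUT1, the main glucose transporter of activated T cells. It stood at 60.3, 53.1 and 62.4 CPM in ConA and at 40.5, 53.6 and 33.9 CPM in ConA+SIM. ConA+SIM replicate 2 lay just above the lowest ConA library, so the groups overlapped, and the log2 fold change of -0.46 ± 0.44 did not pass (edgeR adjusted p = 0.999; 95% interval -1.46 to 0.54). Slc2a3, which encodes GLUT3, the other high-affinity transporter of lymphocytes, stood at 86.3 ± 45.8 and 78.3 ± 12.8 CPM (SD, n = 3 per group). The ratio of Slc2a3 to Slc2a1 per length was 1.60, 0.521 and 1.43 in ConA and 1.84, 1.00 and 1.92 in ConA+SIM, with overlap (exact permutation p = 0.5, adjusted p = 0.5).

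Hk1 and Hk2 encode the hexokinases that phosphorylate glucose, Hk1 widely expressed and Hk2 induced on activation, and both bind the mitochondrial surface. Hk1 (chromosome 10, 62268855 to 62379920) stood at 136, 90.2 and 178 CPM in ConA and 140.1, 82.1 and 103 CPM in ConA+SIM, with wide overlap (log2 fold change -0.31 ± 0.36, 95% interval -1.12 to 0.49). Without 1 library the log2 fold change of Hk1 ran from -0.55 (without ConA replicate 2) to -0.0375 (without ConA replicate 3). Hk2 (chromosome 6, 82725025 to 82774454) stood at 42.3, 29.2 and 58.1 CPM in ConA and 21.4, 0 and 18.0 CPM in ConA+SIM. The groups did not overlap, but the spread of Hk2 was wide, since ConA+SIM replicate 2 had 0 counts, which allows up to 0.175 CPM (3 counts, covering counting error only). The log2 fold change of Hk2 was -1.72 ± 1.53 (edgeR adjusted p = 0.983; 95% interval -5.16 to 1.72). Without that library the log2 fold change was -1.13 ± 0.63 (adjusted p = 0.643). A further row for a copy of Hk2 held 10 counts in ConA+SIM replicate 2, 4 in ConA replicate 1 and 0 elsewhere.

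ConA+SIM replicate 2 lacked counts for other genes as well. It had 18.4% of all tested genes at 0, where the other libraries had 2.76% to 9.98%, and 16 of the 80 further pathway genes tested, where the others had 1 to 6. A 0 in this library is therefore reported as a library value and not as a lack of expression. The share of Hk2 among the hexokinases can be read within each library, free of scaling. Per transcript length, the ratio of Hk2 to Hk1 was 0.242, 0.251 and 0.253 in ConA and 0.118 and 0.135 in ConA+SIM replicates 1 and 3. The ratio was thus nearly the same in the ConA libraries and lower in both ConA+SIM libraries that had Hk2 counts, by 0.97 on the log2 scale. The exact two-sided permutation test gave p = 0.2, the smallest that 3 against 2 libraries allow, and an adjusted p = 0.5 over 4 ratios. With the copy rows added, which gives ConA+SIM replicate 2 a ratio from 10 counts, the difference was -2.48.

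Pfkp and Aldoa act at the commitment and cleavage steps, and both genes separated the groups without a 0 in any library. Lower values without overlap were found in 8.57% of all tested genes. Pfkp (chromosome 13, 6579874 to 6649060) encodes the platelet form of phosphofructokinase, an isoform also made in lymphocytes. It stood at 219, 241 and 249 CPM in ConA and 144, 179.9 and 192 CPM in ConA+SIM, each ConA+SIM library below each ConA library. The log2 fold change of Pfkp was -0.46 ± 0.24 (edgeR adjusted p = 0.683; 95% interval -0.996 to 0.079). The liver form Pfkl was lowest in ConA replicate 2, with 5.59 CPM, and highest in ConA+SIM replicate 2, with 109 CPM. The ratio of Pfkp to Pfkl per length, 3.67, 38.8 and 2.64 in ConA and 1.53, 1.48 and 4.05 in ConA+SIM, overlapped (exact permutation p = 0.3, adjusted p = 0.5). The ConA value of this ratio rested on ConA replicate 2: the log2 difference was -1.78 with it and -0.57 without it.

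Aldoa (chromosome 7, 126795234 to 126800994) encodes aldolase A, which splits fructose 1,6-bisphosphate into triose phosphates. It stood at 737, 567 and 661 CPM in ConA and 384, 339.7 and 479.9 CPM in ConA+SIM. The lowest ConA library lay above the highest ConA+SIM library, and the mean was 655 ± 85.3 against 401 ± 71.6 CPM (SD, n = 3 per group). The log2 fold change of Aldoa was -0.71 ± 0.21 (unadjusted p = 0.00752, 95% interval -1.17 to -0.24), which did not pass over all genes (edgeR adjusted p = 0.315), whereas DESeq2 called it (-0.72 ± 0.19, adjusted p = 0.004). Over 16 alternatives Aldoa stayed below 0, from -0.99 with transcript length offsets to -0.60 without ConA+SIM replicate 2, with adjusted p from 0.004 to 0.838.

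**Figure D2:**
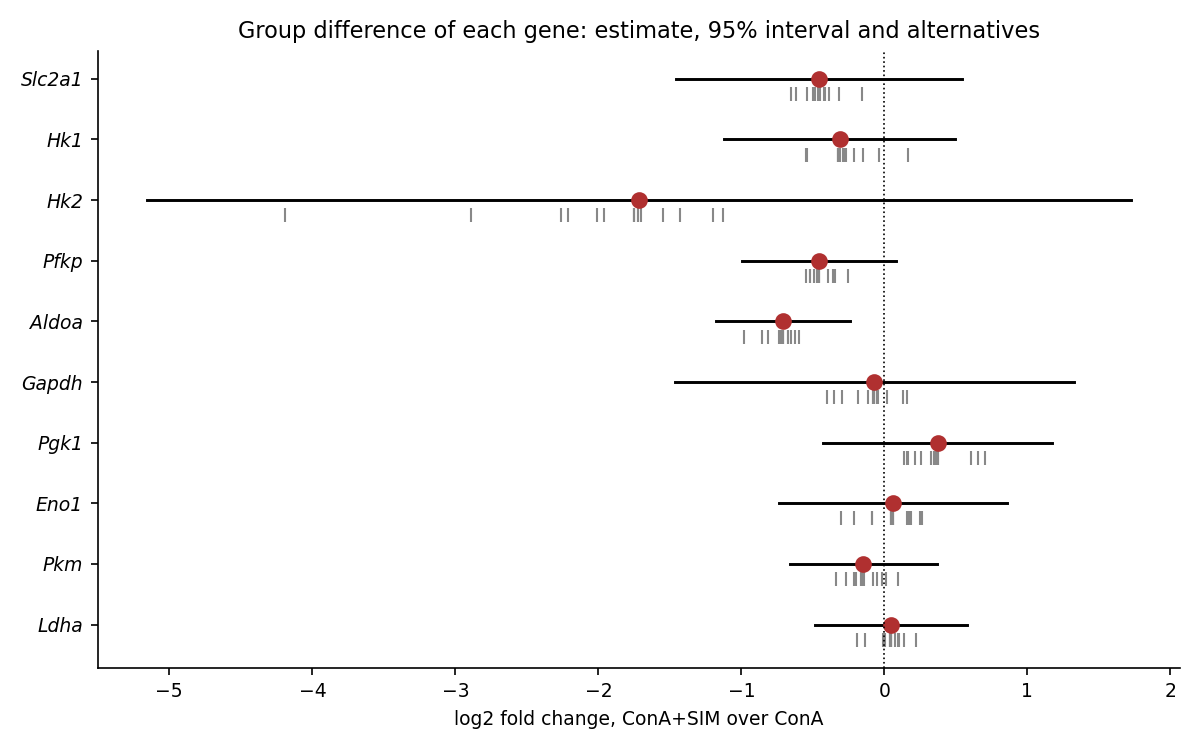
Log2 fold change of each gene, ConA+SIM over ConA (horizontal axis): estimate (red), 95% interval (black line) and the values under 16 alternative analyses (grey ticks). Only the interval of Aldoa, -1.17 to -0.24, lies wholly below 0, and that interval is not adjusted for the number of genes tested.

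At the payoff steps, from triose phosphate to pyruvate, the groups overlapped for every one of the genes measured here. Only 17.8% of all tested genes separated in either direction, so this overlap does not set the payoff steps apart. Pgk1 (chromosome X, 106187100 to 106203699) encodes phosphoglycerate kinase, the first ATP-yielding step. It stood at 609.9, 288 and 386 CPM in ConA and 641, 316 and 707 CPM in ConA+SIM, the most positive fold change of the 10 genes (log2 fold change 0.37 ± 0.36, adjusted p = 0.997; 95% interval -0.43 to 1.17). Without 1 library the log2 fold change of Pgk1 ran from 0.14 (without ConA replicate 2) to 0.703 (without ConA replicate 1). Replicate 2 was the lowest library in each group, and the range of each group covered most of the other's.

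Eno1 (chromosome 4, 150236708 to 150248879) encodes enolase 1, and Pkm (chromosome 9, 59656576 to 59679372) the muscle-type pyruvate kinase, whose isoforms M1 and M2 come from alternative exons that gene counts do not tell apart. Eno1 stood at 335, 159 and 287 CPM in ConA and 393, 196 and 227 CPM in ConA+SIM (log2 fold change 0.061 ± 0.35, 95% interval -0.74 to 0.86). A copy row of Eno1 held 1952 counts in ConA replicate 1 and 35 to 97 in the other libraries, and with it added the log2 fold change was -0.085. Pkm was the gene with the most counts, at 1419.7, 885 and 1258 CPM in ConA and 1245, 825 and 1147 CPM in ConA+SIM (log2 fold change -0.15 ± 0.23, 95% interval -0.66 to 0.37). Both intervals allow a difference of the size estimated for Pfkp in at least 1 direction.

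Ldha (chromosome 7, 46842274 to 46855627) encodes the lactate dehydrogenase subunit that favours lactate formation. It stood at 1113, 592 and 980.1 CPM in ConA and 979, 940.1 and 856 CPM in ConA+SIM, so the ConA+SIM libraries lay within the ConA range (log2 fold change 0.048 ± 0.24, adjusted p = 0.999; 95% interval -0.48 to 0.58). The other subunit gene, Ldhb, had 0 counts in ConA+SIM replicate 2. The ratio of Ldha to Ldhb per length was 32.4, 15.2 and 21.6 in ConA and 24.0 and 32.8 in ConA+SIM replicates 1 and 3, so Ldha was the far more abundant subunit in every library where the ratio could be taken (exact permutation p = 0.4 for the difference, adjusted p = 0.5).

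Gapdh (chromosome 6, 125161852 to 125166467), the triose phosphate dehydrogenase often used as a reference gene, had few counts. It stood at 21.5, 41.2 and 45.4 CPM in ConA and 44.4, 34.5 and 24.2 CPM in ConA+SIM, from 453 to 1154 counts per library, with overlapping groups (log2 fold change -0.070 ± 0.62, 95% interval -1.47 to 1.33). Mouse Gapdh has many processed pseudogenes. Of the 1371 windows of 50 bases in its GENCODE M21 transcript, 82.5% occur without mismatch in transcripts of other genes, 222 genes in all, against 0% in Hk2, 13.5% in Aldoa, 16.6% in Ldha, 34.4% in Pkm, 68.0% in Pgk1 and 72.2% in Eno1. The labels do not state how reads matching several places were handled, and the part of such reads in the low Gapdh count was not tested. The coding stretches of 50 bases found in the most other genes are shown for Gapdh and Eno1, the genes with the highest shares: that of Gapdh (coding bases 415 to 464) occurs in 84 other genes, and that of Eno1 (445 to 494) in 5.
Gapdh: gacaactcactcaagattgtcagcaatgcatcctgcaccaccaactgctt
Eno1: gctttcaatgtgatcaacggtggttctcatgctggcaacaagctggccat
The level of Gapdh, and those of Pgk1 and Eno1, are therefore uncertain, and the level of Gapdh is not used as a reference for any other gene.

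Levels of the genes were compared per transcript length, as length-scaled transcript shares (TPM) computed from the counts. In ConA, Ldha stood at 1093 ± 302 TPM, Pkm at 1085 ± 222 and Aldoa at 943 ± 106 (SD, n = 3), and these neighbours did not differ beyond their spread in that group. Ldha was above Pkm in 4 of 6 libraries. Pkm was above Aldoa in 2 of 3 ConA libraries and in 3 of 3 ConA+SIM libraries, where Pkm stood at 731 ± 129 TPM and did not overlap with Aldoa. In ConA, Pgk1 followed at 522 ± 198 TPM and Eno1 at 285 ± 92.5 TPM, and Pgk1 was above Eno1 in 6 of 6 libraries. The remaining genes were lower: Pfkp at 127 ± 9.68 TPM, Hk1 at 69.5 ± 19.0, Gapdh at 56.7 ± 19.7, Slc2a1 at 40.1 ± 1.42 and Hk2 at 17.3 ± 4.83, with Pfkp above Hk1 and Slc2a1 above Hk2 in 6 of 6 libraries. In ConA+SIM the order was the same but for Aldoa, at 432 ± 82.0 TPM, and Pgk1, at 504 ± 186 TPM: Aldoa was above Pgk1 in 3 of 3 ConA libraries and in 1 of 3 ConA+SIM libraries. The places of Pgk1, Eno1 and Gapdh in this order are uncertain, as their levels are.

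**Figure D3:**
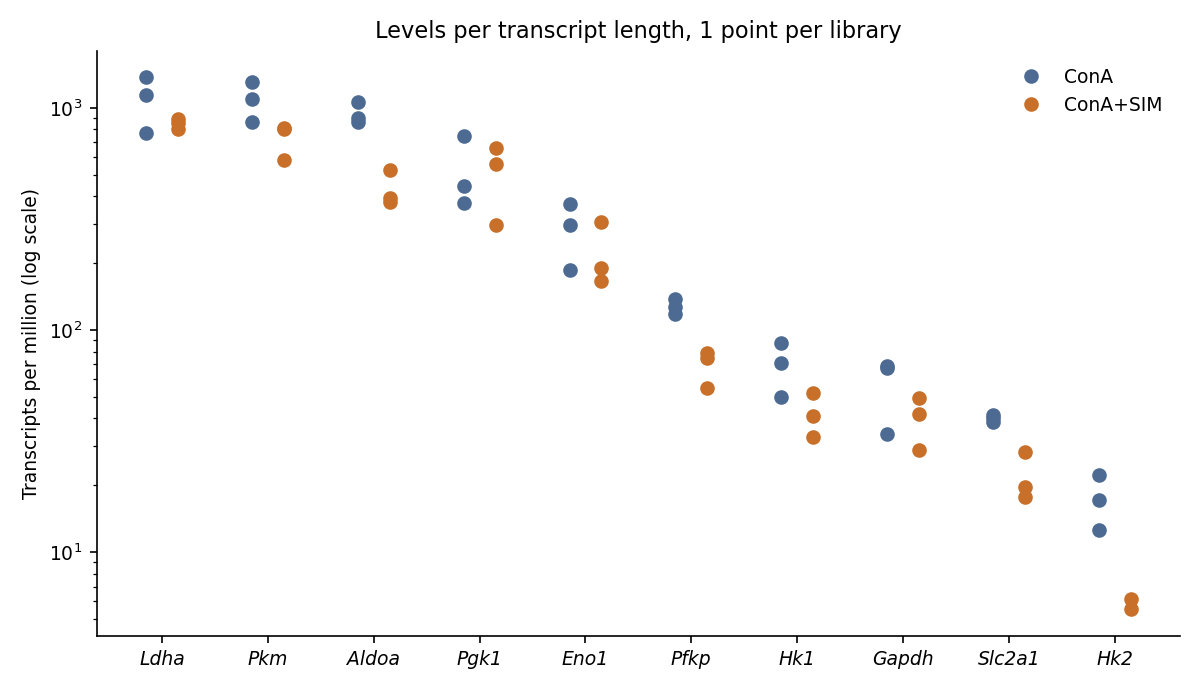
Level of each gene in TPM (log axis), 1 point per library, ConA in blue and ConA+SIM in orange, ordered by the mean over the 6 libraries; Hk2 in ConA+SIM replicate 2 is 0 and not drawn. Ldha and Pkm have the highest group means and Slc2a1 and Hk2 the lowest in both groups. The levels of Gapdh, Pgk1 and Eno1 are uncertain.

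TPM values are used for this order and not for the comparison of the groups, since the TPM scale itself moved between them. On it the median of all tested genes was -0.47 (log2 of the ratio of group means, ConA+SIM over ConA) and that of the 10 genes -0.65, with 5 genes, Slc2a1, Hk2, Pfkp, Aldoa and Pkm, lower without overlap, against 19.4% of all genes. The summed CPM of the 10 genes was 4694, 2946 and 4166 in ConA and 4033, 2967 and 3788 in ConA+SIM, 0.290% to 0.498% of the counts of a library. ConA replicate 2 was the lowest of its group for 8 of the 10 genes, all but Pfkp and Gapdh, and ConA+SIM replicate 2 for 6 of 10, namely Hk1, Hk2, Aldoa, Pgk1, Eno1 and Pkm. The share of all tested genes lowest in these libraries was not counted, and ConA+SIM replicate 2 had 18.4% of all tested genes at 0. The 10 genes did not all move together. Correlations of their log2 CPM over the 6 libraries ran from -0.59 (Slc2a1 with Pgk1) to 0.86 (Eno1 with Pkm). In these bulk libraries fewer cells of a type and less RNA per cell cannot be told apart.

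Genes outside the 10 whose log2 CPM followed them most closely over the 6 libraries, by Pearson correlation with the mean of their standardised values, were the kinesin gene Kif22 (r = 0.996), the m6A reader gene Ythdf1 (0.993), the plectin gene Plec (0.988), the adenosine receptor gene Adora2a (0.981) and the chromatin assembly gene Chaf1b (0.981). These are descriptions over 6 libraries that share depth and scaling, taken as the highest among all tested genes with a mean of at least 10 CPM.

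The other genes of glycolysis and of glucose and lactate transport were a list of 31, of which 21 could be tested. None passed: 0 rose, 0 fell, 8 had higher and 13 lower values, and the median log2 fold change was -0.35. Of the 21 genes, 1 was higher and 2 were lower without overlap, against 9.18% and 8.57% of all tested genes. Gpi1, the isomerase between hexokinase and phosphofructokinase, had 679 ± 94.5 CPM in ConA and 466 ± 122 in ConA+SIM, without overlap (log2 fold change -0.54 ± 0.24, adjusted p = 0.552). Slc16a1, which encodes the lactate and pyruvate carrier MCT1, was the 1 gene of this list with higher values and no overlap, at 56.0 ± 9.20 and 98.1 ± 16.7 CPM (0.81 ± 0.36, adjusted p = 0.563). Slc16a3, which encodes the lactate exporter MCT4 of glycolytic cells and was singled out after its values were seen, had 41.3, 66.6 and 48.4 CPM in ConA and 13.0, 0 and 6.09 CPM in ConA+SIM. It had the same separation as Gpi1 but a wide error (-3.03 ± 1.51, adjusted p = 0.652). The remaining enzymes of the main path, Tpi1 (323 ± 105 and 356 ± 47.6 CPM) and Pgam1 (92.7 ± 25.5 and 92.01 ± 43.0 CPM), overlapped.

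Of 9 genes that set fructose 2,6-bisphosphate, the activator of phosphofructokinase, or that restrain glucose use, 6 were tested, 0 passed and the median was -0.19. Pfkfb3, the main kinase that makes this activator, had 80.0 ± 31.5 CPM in ConA and 39.6 ± 6.52 in ConA+SIM without overlap (log2 fold change -1.01 ± 0.46, adjusted p = 0.578). Pfkfb4, which encodes a related enzyme, had 24.1 ± 12.8 and 9.37 ± 8.53 CPM with overlap. Of 14 genes for pyruvate entry into mitochondria, 11 were tested and 0 passed, with 8 values higher and 3 lower and a median of 0.35. Its genes with the smallest p were Pdk1, a kinase that shuts pyruvate dehydrogenase (135 ± 46.7 and 181 ± 39.5 CPM, adjusted p = 0.931), and Dld, a subunit of that complex (131 ± 37.3 and 176 ± 79.9 CPM), both overlapping. The 10 genes of the pentose phosphate branch, which makes NADPH and ribose, had 5 values higher and 5 lower, 0 passing and a median of 0.025. Taldo1, the transaldolase gene, had 245 ± 5.30 and 213 ± 25.5 CPM without overlap (-0.20 ± 0.22), and Prps2, which uses ribose phosphate for nucleotide synthesis, 112 ± 92.3 and 50.9 ± 46.0 CPM with overlap. Of the tested genes of these lists, in the order given, 1 of 6, 0 of 11 and 1 of 10 separated, against 17.8% of all tested genes.

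**Figure D4:**
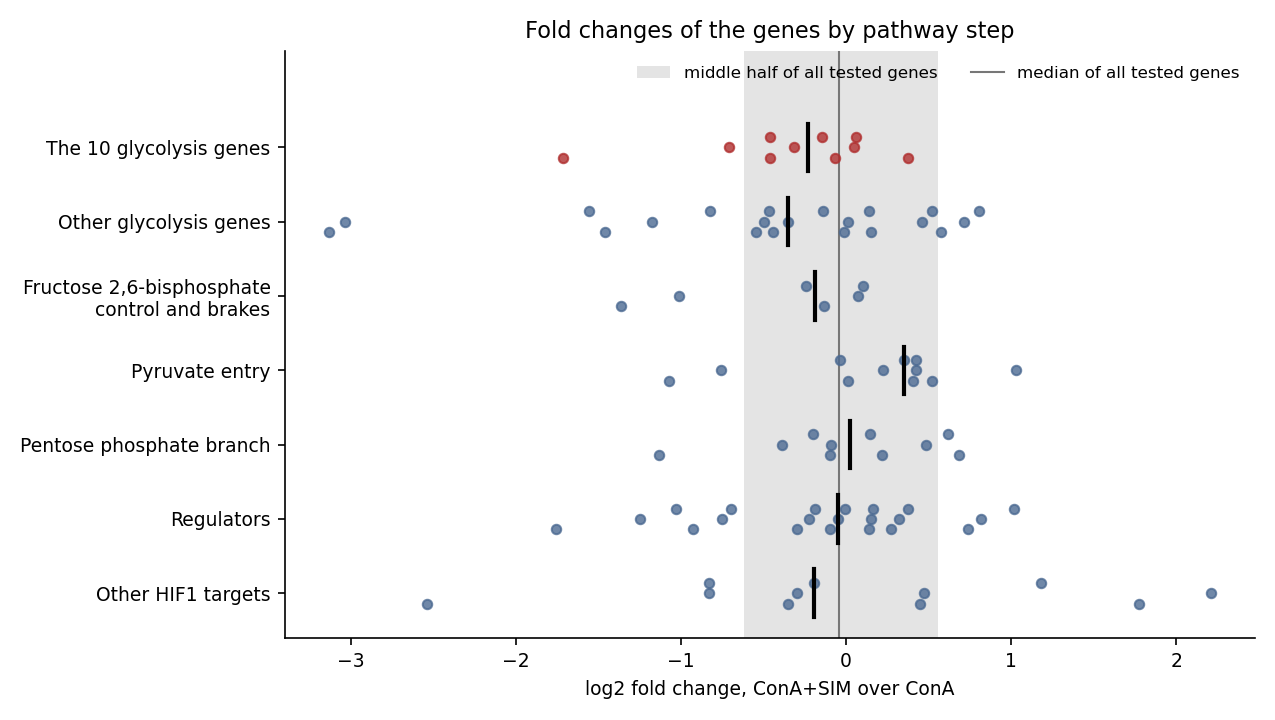
Log2 fold change of each tested gene, ConA+SIM over ConA (horizontal axis), for the 10 genes (red) and the 6 further lists (blue), with each list's median as a black bar; the grey band and line are the middle of the distribution and the median of all 10509 tested genes. The list medians run from -0.35 (other glycolysis genes) to 0.35 (pyruvate entry), inside the grey band, which runs from -0.62 to 0.55.

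Regulators were a list of 21 genes, all tested, with 9 values higher, 12 lower, 0 passing and a median of -0.047. Hif1a stood at 643 ± 93.5 and 709 ± 138 CPM (log2 fold change 0.14 ± 0.21) and Myc at 103 ± 32.9 and 90.3 ± 36.3 CPM (-0.19 ± 0.42), each with overlap. The genes with the smallest p were Tsc2 and Rheb. Tsc2, which encodes the tuberin subunit that restrains mTOR complex 1, had 91.1, 91.4 and 61.4 CPM in ConA and 23.2, 12.0 and 36.9 CPM in ConA+SIM (-1.76 ± 0.54, edgeR adjusted p = 0.335). DESeq2 called Tsc2 (adjusted p = 0.00875). Rheb, the GTPase that tuberin inhibits and that activates mTOR complex 1, had 77.7, 44.9 and 48.5 CPM in ConA and 165, 86.5 and 94.6 CPM in ConA+SIM (1.02 ± 0.41, adjusted p = 0.497). Both genes separated the groups, in opposite directions. Of the 21 regulators, 2 were higher and 3 lower without overlap, against 9.18% and 8.57% of all tested genes. Of the other regulators Akt1 (-0.93 ± 0.39, adjusted p = 0.535) and Rptor (-1.03 ± 0.65, adjusted p = 0.826) were lower without overlap and Egln3 (0.82 ± 0.86, adjusted p = 0.999) higher, named here after their values were seen. Of 14 other HIF1 targets in the table, 11 were tested, with 5 values higher, 6 lower, 0 passing and a median of -0.19. Among them Bnip3l, a mitophagy receptor gene, was higher without overlap (187 ± 23.9 and 259 ± 10.6 CPM, 0.47 ± 0.23, adjusted p = 0.628), and the growth factor gene Vegfa was lower without overlap (43.6 ± 17.7 and 7.49 ± 8.91 CPM, -2.54 ± 1.62, adjusted p = 0.826). Vegfa had 325, 0 and 96 counts in ConA+SIM, the 0 in replicate 2, the library with the most genes at 0. These were 1 of the 11 genes in each direction, against the same shares of all tested genes.

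Total counts ran from 17549429 to 25031862 per library. The 6 listed CD4 T cell markers found in the table (Cd3d, Cd3e, Cd3g, Cd4, Cd5, Cd28) had counts in every library, with summed levels of 1805 to 2773 CPM in ConA and 2562 to 2623 in ConA+SIM. Of these, Cd3d (361 ± 79.7 and 617 ± 76.4 CPM) and Cd3g (569 ± 118 and 885 ± 104 CPM) were higher in ConA+SIM without overlap. The others overlapped, with lower means in ConA+SIM for Cd3e, Cd4 and Cd5 and a higher mean for Cd28. The summed CD8 markers were at 4.72 to 54.1 CPM, with Cd8a at 0 in replicate 2 of both groups. Other cells were present in the RNA at levels that differed between libraries: 10 Kupffer cell and macrophage markers summed to 914 to 2113 CPM in ConA and 227 to 1176 in ConA+SIM, with ConA replicate 1 the highest and ConA+SIM replicate 2 the lowest, and in 5 of them 1 or more libraries were at 0. Lyz2 made up most of these sums (927 ± 580 CPM in ConA and 623 ± 391 in ConA+SIM). Cd68 (80.3 ± 13.4 and 17.7 ± 16.1 CPM) and C1qa (48.1 ± 19.7 and 19.6 ± 5.41 CPM) were lower in ConA+SIM without overlap. Cd68 had 405, 0 and 590 counts in ConA+SIM, the 0 in replicate 2. The remaining macrophage markers, Lyz2 among them, overlapped. The 7 sinusoidal endothelial markers ran from 215 to 1652 CPM in ConA, the top value in replicate 2, and from 293 to 541 in ConA+SIM. Neutrophil markers (6 genes, Ly6g at 0 throughout) summed to 258 to 364 CPM in ConA and 557 to 860 in ConA+SIM, erythroid markers (6 genes) to 43.8 to 115 and 229 to 343, and NK markers (6, Ncr1 at 0) to 157 to 338 and 451 to 483, each without overlap between the groups. The neutrophil sums were made up mostly of S100a8 (106 ± 14.3 and 283 ± 91.2 CPM) and S100a9 (180.4 ± 46.5 and 414 ± 99.98 CPM), whereas Mpo was lower without overlap (21.6 ± 7.63 and 3.28 ± 5.68 CPM). Mpo had 0, 0 and 184 counts in ConA+SIM. B and plasma cell markers (5 of 6 in the table) ran from 114 to 1157 CPM in ConA and 458 to 859 in ConA+SIM. Klrb1c, which encodes NK1.1, had counts in every library and was higher in ConA+SIM without overlap (14.8 ± 7.09 and 42.0 ± 2.58 CPM). Of the other NK markers with counts, Klrd1 and Nkg7 were also higher without overlap, whereas Klrk1 and Eomes overlapped. The part of these cells in the values of the 10 genes was not tested. Hepatocyte markers (10, Cps1 at 0) summed to 48.2 to 93.4 and 85.1 to 231 CPM.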

How the data were processed

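RNA sequencing of 6 libraries, 3 per group, was deposited by the authors as 1 table of raw read counts, unnormalized integers with 1 row per gene. HISAT2 2.1.0 and GRCm38 are named per the submitters' processing notes; the counting tool and its settings for strand and multiply matching reads are not stated there or in the labels. Columns carry sample titles, which gave groups and replicate numbers, and 0 columns were unused. Counts were filtered with filterByExpr, scaled by TMM and tested with edgeR 4.0.16 (quasi-likelihood F test, robust, no covariates) on all genes in R 4.3.3, adjusted by Benjamini and Hochberg at 0.05; 10278 of 23505 rows had no count. The fit gives no standard error directly. For edgeR it was taken as the size of the log2 fold change over the square root of the F statistic. Intervals of 95% use that error and the t distribution of that fit. TPM used 1 transcript per gene from GENCODE M21, the longest of those linked to RefSeq, and 99.5% of tested genes had one. Isoenzyme ratios were tested with exact permutation in scipy 1.17.1. An adjusted p above the threshold does not show that a gene was alike in the groups.

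The 10 genes and all lists were chosen with earlier results of these data known. Named were the 10 genes, from each list the 2 of smallest p where fewer than 2 passed, the genes of 4 ratios and the 5 most alike. Tpi1, Pgam1, Hif1a, Myc, Slc16a3, Akt1, Rptor, Egln3 and the cell type markers given singly were named outside this rule, with their values known. Alternatives were RLE scaling, no filter, 5 CPM in 3 libraries, DESeq2 1.42.0, limma-voom (limma 3.58.1) without and with quality weights, the replicate block, each library left out, trend offsets for transcript length or length and GC content (splines with 5 degrees of freedom) and summed copy rows. The TPM scale was added after seeing the data.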

Additional observations from a re-analysis of the deposited data

How the results depend on the processing

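Of the 160 values that the 10 genes took over 16 alternatives, 146 kept their direction and call, 13 reversed and Aldoa was called by DESeq2. Over all genes, 57 calls became 555 with DESeq2, 115 with limma-voom, 114 with quality weights, 0 with the replicate block, 0 with either trend offset and 0 to 3 without 1 library; the cause was not tested. The number of the 10 genes called was 1 with DESeq2 and 0 in the other 15 alternatives, and 1 regulator, Tsc2, was called by DESeq2. The median of the 10 genes ran from -0.398 to -0.06 without 1 library and was -0.65 on the TPM scale. With length offsets Eno1 was at -0.0839 and Ldha at -0.134; with length and GC offsets Hk1 was at 0.164, Pkm at 0.0985 and Ldha at -0.00741; with copy rows summed Eno1 was at -0.0854. Without 1 library Eno1 ran from -0.302 to 0.266, Gapdh from -0.349 to 0.156, Ldha from -0.193 to 0.221 and Pkm from -0.336 to 0.0118. Hk2 was at -4.19 with limma-voom and -2.89 with the block.

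The pentose phosphate median, 0.025, was -0.0955 with the 5 CPM filter, -0.0372 with limma-voom, -0.0184 with the block, -0.102 with length offsets and -0.139 to 0.0559 without 1 library. The regulator median was 0.0745 with limma-voom, 0.00998 with the block, 0.0439 and 0.0851 with the offsets and -0.226 to 0.0885 without 1 library. The median of the fructose 2,6-bisphosphate list was -1.59 with limma-voom. The pyruvate entry median was -0.168 with length and GC offsets. Without 1 library the other glycolysis genes ran from -0.598 to 0.0826 and the other HIF1 targets from -0.36 to 0.118.

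Same-numbered libraries of the groups had correlations of deviations of 0.0111, 0.00878 and 0.0328, so no pairing by number was visible, and not every library correlated best with its own number. With 3 libraries per group these values cannot decide if a number marks a shared animal, litter or day. The block changed no call of the 10 genes, but 0 of them were called without it and it called 0 of all tested genes, so no call could be lost. All 4 isoenzyme ratios kept their direction: without 1 library the log2 differences ran from 0.0138 to 0.828 for Slc2a3 over Slc2a1, -1.07 to -0.876 for Hk2 over Hk1, -2.51 to -0.571 for Pfkp over Pfkl and 0.0822 to 0.626 for Ldha over Ldhb. The floor of 3 counts lay between 0.118 and 0.175 CPM. ConA+SIM replicate 2 had 17549429 counts and 18.4% of tested genes at 0, and ConA replicate 2, with 18360352 counts, had 9.34%; the cause was not tested.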
